A study of Mus musculus with 8 samples.

Results

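The transcriptome described here is that of a mouse pancreatic alpha cell line, αTC1-6, after transfection with an empty plasmid. It comprises 4 of the 8 libraries of the study, which are the 4 whose labels name them as controls, numbered 31, 32, 33 and 34, and each holds estimated counts for the same 75078 genes. The study as a whole set these cells against cells given a plasmid with Yy1, a zinc finger transcription factor. The 4 libraries with that plasmid were not used, so that every value below is a level and none is a difference between treatments. All 4 control libraries thus share the cell line, the transfection and the empty plasmid, and no untransfected cells were measured among them. Transfection followed seeding by 24 h, in a DMEM medium given as 11 mM, and no harvest time is stated in the labels. Whether the 4 samples were separate cultures is not stated either, so the spread between them may be technical.

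Alpha cells are the glucagon-secreting cells of the pancreatic islet. They make the precursor proglucagon from the gene Gcg, and the convertase PC2, the product of Pcsk2, cuts it to glucagon in dense-core granules, whereas in gut L cells PC1/3, the product of Pcsk1, cuts the same precursor to GLP-1. Their secretion answers to glucose, to amino acids and to signals from neighbouring beta and delta cells, and their identity rests on a set of islet transcription factors. αTC1-6 is a clone of a line from a tumour of transgenic mice in which the proglucagon promoter drove the large T antigen of a simian virus, so it is a dividing model of a single clone and not a primary islet cell.

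Levels are given in CPM, a gene's count per 1000000 counts of its library, as the mean ± SD of the 4 libraries. A long transcript yields more fragments than a short one, so genes are ranked against each other on a per-length level instead. This is CPM divided by the length of the longest annotated transcript. It was rescaled so that the genes of a library with such a length sum to the same total. Gene models without a symbol had no such length and are outside this scale. A gene counts as detected at a mean of 1 CPM. In these libraries 52.6% of the 21760 protein-coding genes were detected, with a median of 2.08 CPM over all of them. Each list below, except that of long noncoding RNAs, is set beside those values. Names below the 5 highest of a list, other than genes at 0 and the highest pair of a family, were chosen after their values were seen.

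The libraries held 30570601, 26512862, 20679804 and 27907363 counts in order of their numbers. A count of 0 allows up to 3 counts, which is 0.0981 CPM in the deepest library and 0.145 CPM in library 33, the shallowest, and this limit covers counting error only. Library 33 also stood apart in its values. Of 4673 protein-coding genes at 50 CPM or over, it was the lowest of the 4 for 37.2%, against 17.8% to 23.6% for each of the others. It was also the highest of the 4 for 27.3%, against 23.1% to 25.4% for each of the others. The common biological coefficient of variation was 0.0644 with all 4 libraries and 0.0499 without library 33. Chi-square values per degree of freedom between pairs of libraries were 3.82 to 12.4, above sampling noise, so none was treated as a copy of another.

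The 3 genes that mark these cells were high in all 4 libraries, as the label of the line would have it. Gcg (ENSMUSG00000000394) was at 21888, 20836, 21387 and 20740.0 CPM in libraries 31 to 34, or 21213 ± 533 CPM (SD, n = 4), and was the most abundant gene of all in every library. Pcsk2 (ENSMUSG00000027419) was at 2804, 2824, 2831 and 2803 CPM, or 2815.5 ± 14 CPM (SD, n = 4). Slc38a5 (ENSMUSG00000031170), a glutamine and neutral amino acid transporter, was at 1055, 1092, 943 and 1060.5 CPM, or 1038 ± 65.4 CPM (SD, n = 4). Library 33 was the lowest for Slc38a5 and the highest for Pcsk2, and for Pcsk2 the 4 values spanned about 1% of their mean.

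Abundance was very uneven. Of the protein-coding genes 4386 (20.2%) had no count in any of the 4 libraries, and 6969 (32.0%) never exceeded 3 counts in a library. At the other end, 2307 genes lay between 100 and 1000 CPM and together held 48.9 ± 0.207% of all counts, and 56 genes at 1000 CPM or over held 17.6 ± 0.343%. The most populated class was that from 10 to 100 CPM, with 6846 genes. Ranked by mean CPM, 146 genes held 25% of the counts, 1012 held 50% and 5814 held 90%.

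**Figure D1:**
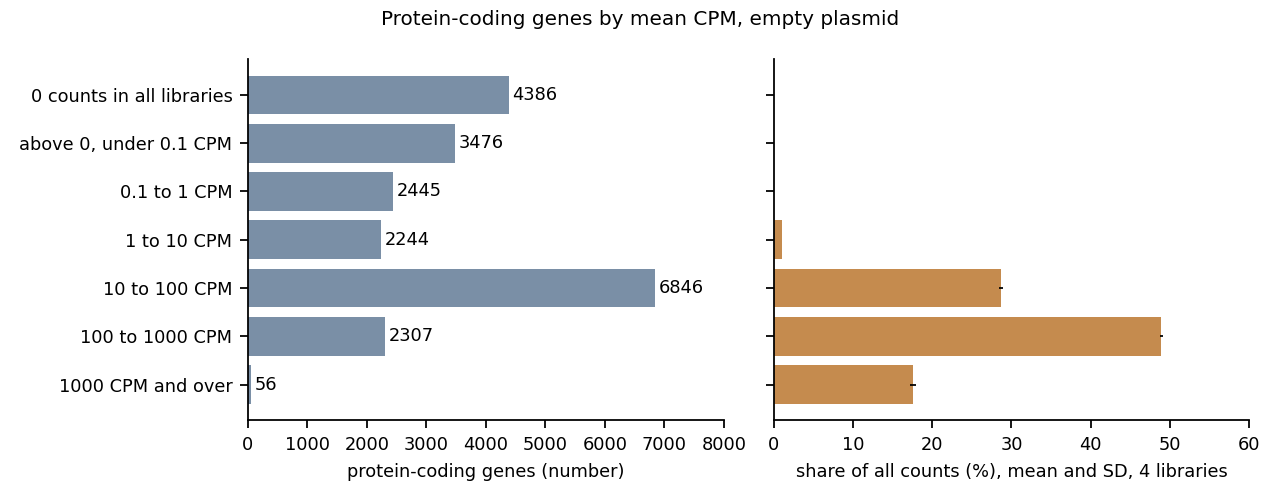
Number of protein-coding genes in each class of mean CPM (left) and the share of all counts that the class holds in percent (right, bars are the mean and error bars the SD of the 4 empty-plasmid libraries). The class from 10 to 100 CPM holds most genes (6846), whereas the class from 100 to 1000 CPM holds most counts (48.9%).

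By kind of gene, protein-coding genes took 96.3 ± 0.293% of the counts. The 13 protein-coding genes of mitochondrial DNA took 7.88 ± 0.484%, and 85 cytosolic ribosomal protein genes together took 1.68 ± 0.0946%. Gcg alone thus held more counts, at 2.12 ± 0.0533%, than all cytosolic ribosomal protein genes, and this order was the same in each of the 4 libraries. It is an order of counts that takes no account of transcript length, and it was not examined per length. Long noncoding RNA genes held 0.963 ± 0.0169%, pseudogenes 0.900 ± 0.0831% and gene models without a symbol 1.19 ± 0.0933%. The mitochondrial ribosomal RNAs were at 0.568, 0.502, 0.776 and 0.594% in libraries 31 to 34, with library 33 the highest.

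Of the 20 highest genes by CPM, 9 were protein-coding genes of mitochondrial DNA, which encode subunits of the respiratory chain and of ATP synthase. The highest of them was mt-Co1, a subunit of cytochrome c oxidase, at 18064, 20522, 18058 and 20178 CPM. In no library did it exceed Gcg, although in library 32 the pair lay within 2% of each other. It was followed by mt-Co2 at 9282 ± 305.2 CPM, mt-Co3 at 8577 ± 614 CPM and mt-Nd1 at 7828 ± 348 CPM. mt-Cytb, mt-Nd4, mt-Nd5, mt-Atp6 and mt-Nd2 lay between 5311 and 7615 CPM, and mt-Rnr2, the large ribosomal RNA of mitochondria, was at 5462 ± 1102 CPM.

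The remaining genes among the 20 highest by CPM were nuclear. Gnas, which encodes the stimulatory G protein alpha subunit that couples receptors to cyclic AMP, led them after Gcg at 4733, 4689, 4741 and 4685 CPM. Next came Peg3, an imprinted zinc finger gene, at 2959 ± 120.0 CPM, the granin Chga at 2884 ± 198 CPM and Pcsk2. Scg2 (2493 ± 209 CPM), Ptma (2466 ± 227 CPM), the chaperone Hsp90ab1 (2343 ± 213 CPM) and Maged1 (2266 ± 35.2 CPM) completed the group, together with Gm13394, a copy of a housekeeping gene that is described at the end. Neighbours in this order by share of counts, such as Chga and Pcsk2 or Scg2 and Ptma, overlapped between libraries and do not differ beyond their spread.

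Per length the lead of Gcg over other nuclear genes was larger. Its per-length level was 47448 ± 1098 (SD, n = 4), and its lowest library (46547) was above the highest library of any other gene on this scale. Mitochondrial genes followed, with mt-Co2 at a per-length level of 33026 ± 1126 and mt-Co1 at 30257 ± 2173, whose ranges overlapped. The small subunit genes mt-Nd4l (5926 ± 379.7) and mt-Atp8 (5129 ± 1240.4) were also among the 20 highest on this scale. The next nuclear protein-coding gene was Ptma, which encodes the small acidic chromatin protein prothymosin alpha, at a per-length level of 4934 ± 439. Chga (3726 ± 243), Rbp4, the plasma carrier of retinol (3531 ± 309.7), and Ftl1, the ferritin light chain (3466 ± 189), came next on this scale and overlapped each other. Gnas (2905 ± 12.5) and the translation factor Eef1a1 (2865 ± 215) stood side by side after them. The glycolytic enzymes Tpi1 (2631 ± 149), Aldoa (2466 ± 196) and Pgk1 (1891 ± 122) were also among the 20 highest nuclear genes per length, as was Atp5b, a subunit of ATP synthase, at 2508 ± 67.6.

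**Figure D2:**
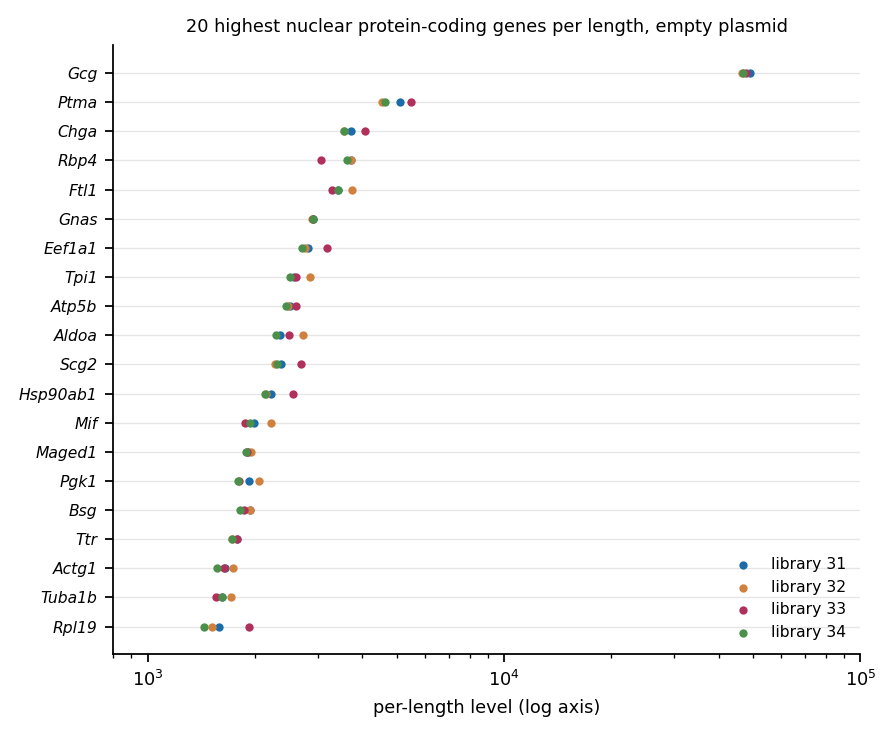
Per-length level (log axis) of the 20 highest nuclear protein-coding genes, 1 point per empty-plasmid library. Gcg lies near 47448, apart from the rest, whereas the genes after it form a gradual slope in which neighbours overlap.

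Since Gcg stood so far above every other nuclear gene, the 250 bases before its first listed start are shown first, followed by those of 2 other highly expressed granule genes and of a hormone gene that was nearly absent, all with 1 of 2 motifs in capitals. The motifs are TATAAA, the TATA box, searched on the strand of the gene and 40 to 20 bases before the start, and TGACGTCA, the cyclic AMP response element, which reads the same on both strands and was searched in the whole window. The sequences are from RefSeq, build GRCm38.p6, printed in the direction of the gene. They lie at chr2:62483654-62483903 (minus strand) for Gcg, chr1:79440027-79440276 (minus strand) for Scg2, chr2:132781392-132781641 (plus strand) for Chgb and chr16:23890845-23891094 (minus strand) for Sst, the somatostatin gene.
Gcg: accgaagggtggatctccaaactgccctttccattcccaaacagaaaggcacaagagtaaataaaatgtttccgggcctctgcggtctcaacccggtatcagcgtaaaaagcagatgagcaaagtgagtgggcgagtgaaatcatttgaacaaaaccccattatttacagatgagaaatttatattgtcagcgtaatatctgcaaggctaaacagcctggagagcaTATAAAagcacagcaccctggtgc
Scg2: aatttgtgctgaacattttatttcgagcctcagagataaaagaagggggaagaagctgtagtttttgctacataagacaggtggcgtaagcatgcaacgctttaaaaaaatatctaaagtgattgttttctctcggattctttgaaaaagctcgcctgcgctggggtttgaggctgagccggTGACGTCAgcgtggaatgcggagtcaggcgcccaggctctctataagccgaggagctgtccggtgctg
Chgb: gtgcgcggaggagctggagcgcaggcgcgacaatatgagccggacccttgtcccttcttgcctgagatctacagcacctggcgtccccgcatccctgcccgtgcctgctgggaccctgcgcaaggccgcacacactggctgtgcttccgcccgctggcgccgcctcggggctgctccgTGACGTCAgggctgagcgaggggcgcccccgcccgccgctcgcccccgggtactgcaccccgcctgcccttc
Sst: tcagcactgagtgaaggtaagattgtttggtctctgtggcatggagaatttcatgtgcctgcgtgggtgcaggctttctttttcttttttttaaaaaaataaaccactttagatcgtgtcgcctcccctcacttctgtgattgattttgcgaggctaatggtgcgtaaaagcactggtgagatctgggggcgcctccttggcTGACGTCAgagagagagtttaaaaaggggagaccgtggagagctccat

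In the Gcg window TATAAA began 24 bases before the listed start. TGACGTCA began 68 bases before the start in Scg2, 72 in Chgb and 48 in Sst. The same letters thus stood before genes at 2493 ± 209, 1044 ± 197 and 0.00896 ± 0.0179 CPM. Only windows with a match are shown, and that of Pcsk2, at 2815.5 CPM, held neither motif. A match is a description of the letters and not evidence of binding.

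Across 16490 protein-coding genes with such a window, TATAAA in that position was most frequent among genes at 0 and rarest between 10 and 100 CPM. It was present for 7.03% of 3158 genes at 0 in all 4 libraries, for 1.29% of 1705 genes between 1 and 10 CPM, for 0.675% of 5485 genes between 10 and 100 CPM and for 0.757% of 1849 genes between 100 and 1000 CPM, against 2.78% of all. Of 35 genes at 1000 CPM or over, 1 had it, and that gene was Gcg. The ratio of observed to expected CpG had a median of 0.157 for genes at 0, 0.612 between 1 and 10 CPM, 0.822 between 100 and 1000 CPM and 0.763 at 1000 CPM or over. In the Gcg window this ratio was 0.558, below the median of its class. TGACGTCA was in 2.07% of all windows and in 3 of the 35 (8.57%) at 1000 CPM or over, which were those of Scg2, Chgb and Peg3, too few for a statement about the class.

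Glucagon stood nearly alone among hormones. Of 82 genes for peptide hormones and neuropeptides, 12 (14.6%) reached 1 CPM, 25 had no count and 44 never exceeded 3 counts, with a median of 0.0318 CPM. After Gcg came Ttr, which encodes transthyretin, the carrier of thyroxine and of retinol-binding protein, at 871, 841, 869.9 and 835 CPM, or 854 ± 18.7 CPM (SD, n = 4). Every other member was under 30 CPM, so that no library of any of them came near these 2 genes.

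Next among the hormones were Nucb2, the nesfatin precursor, at 21.9, 18.8, 25.1 and 19.8 CPM, and Adm, the vasodilator adrenomedullin, at 13.2, 18.4, 11.1 and 13.3 CPM. Cartpt, the precursor of the CART peptides, followed at 8.72 ± 1.02 CPM, Pomc, the precursor of corticotropin and melanocortins, at 4.88 ± 0.982 CPM, and Calca, the calcitonin gene, at 3.29 ± 0.445 CPM. On the per-length scale Nucb2 (23.9 to 31.8 over libraries) and Adm (19.3 to 32.3) overlapped, and Cartpt (15.5 to 20.2) overlapped Adm. Adm was highest in library 32 and Nucb2 in library 33.

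Hormones of the other islet cells were absent or nearly so. The insulin genes Ins1 and Ins2, the pancreatic polypeptide gene Ppy and Ucn3, the urocortin of mature beta cells, had no count in any library. Somatostatin (Sst) had 1 count in library 34 and none elsewhere, and Pyy had 1 count in library 31. Iapp, which encodes amylin of beta cells, was above these at 0.589, 0.415, 0.677 and 0.323 CPM. Among gut and pituitary hormones, Gip, Vip, Nts, Insl5, Gh, Prl, Cga, Fshb, Lhb and Tshb were all at 0, as were Crh, Kiss1, Lep, Nmu, Nppa, Npw, Pth, Tac2, Tac4, Ucn and Uts2.

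The machinery that turns a prohormone into a granule peptide was expressed broadly, with 16 of 19 processing enzymes and their binding proteins detected and a median of 75 CPM. Per length the order was Pcsk2 (1444 to 1453 over libraries), Pam, which amidates peptides (1023 to 1041), Cpe, which trims basic residues (731 to 795), and Scg5, the chaperone of PC2 (601 to 666), and no neighbouring pair overlapped. Measured by the median rather than the longest transcript, Pam came before Pcsk2. The fifth, Pcsk1n, which encodes an inhibitor of PC1/3, was uneven, at 126, 128, 190.2 and 158 CPM, with library 33 the highest.

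The convertases differed widely. Pcsk1 was at 0.883, 1.24, 1.40 and 0.752 CPM, or 1.07 ± 0.304 CPM (SD, n = 4), resting on 21 to 33 counts per library. Its per-length level of 0.517 ± 0.145 stood against 1451 ± 4.5 for Pcsk2, and the libraries of these 2 genes were far apart. Furin, the convertase of the constitutive pathway, was at 59.9 ± 3.53 CPM. Pcsk5 had 3 counts in library 31 and none in the others.

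Granins and granule proteins were nearly all present, with 21 of 22 detected and a median of 262 CPM. Chga (chromogranin A) was at 2878, 2762, 3164 and 2729.8 CPM, Scg2 (secretogranin II) at 2441, 2361, 2802 and 2368 CPM, and Chgb (chromogranin B) at 1040.1, 878, 1322 and 937 CPM. All 3 were highest in library 33. Resp18, a granule protein of neuroendocrine cells, had a per-length level of 1176 ± 70.5, and Ptprn, the granule membrane protein IA-2, one of 919 ± 35, which overlapped that of Chgb (927 ± 172). Slc18a2, the vesicular monoamine transporter of monoamine neurons, was the exception, with 2 counts in library 31 and none in the others.

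**Figure D3:**
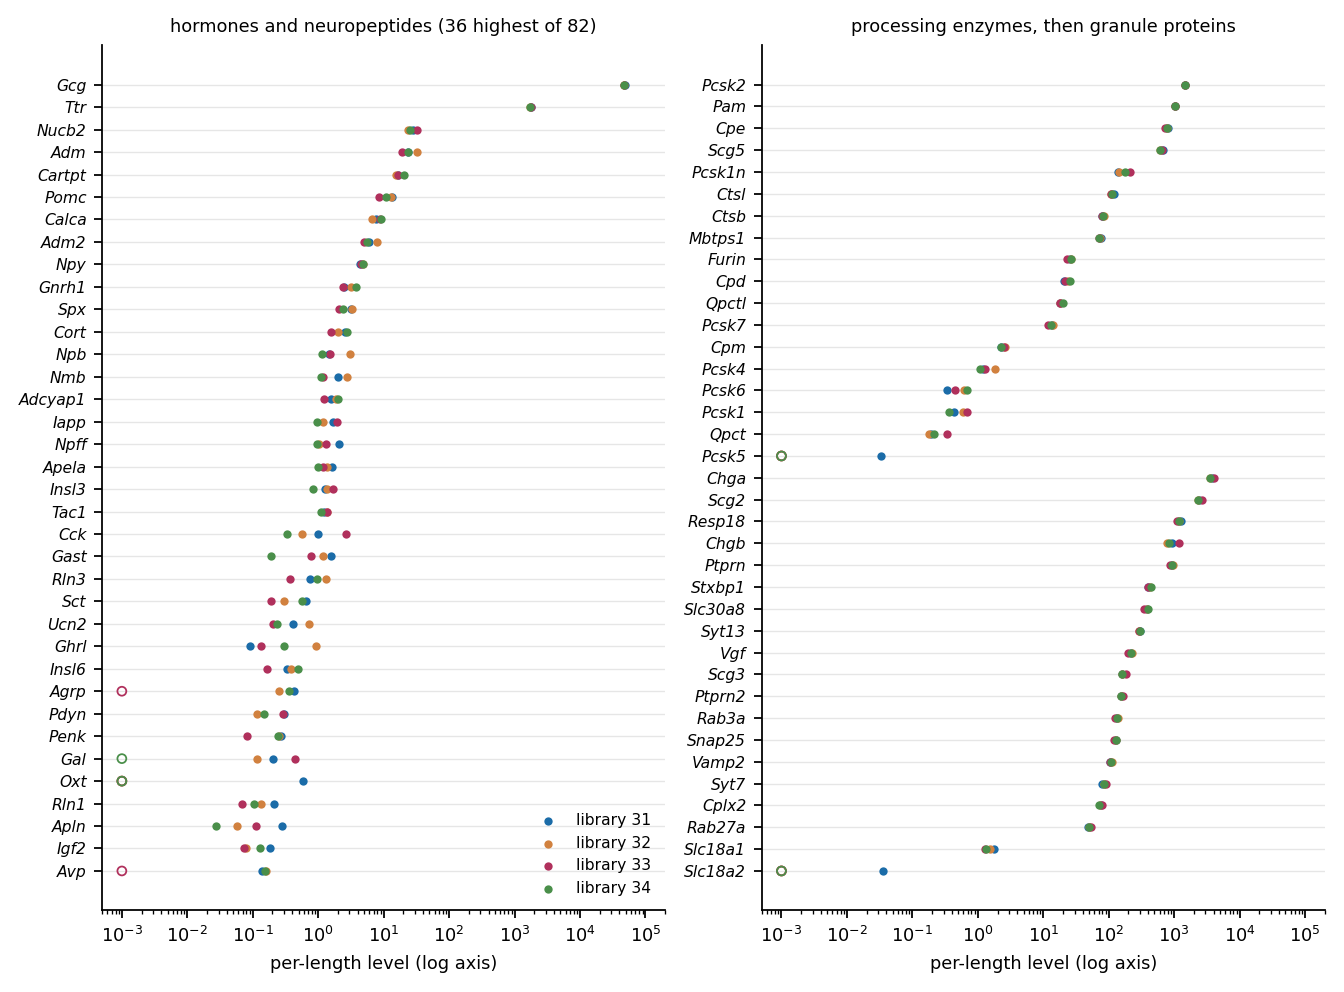
Per-length level (log axis) of the 36 highest of 82 hormone and neuropeptide genes (left) and of processing enzymes followed by granule proteins (right), 1 point per empty-plasmid library, with open circles at the left edge for a count of 0. Gcg and Ttr lie far to the right of all other hormones, while most processing and granule genes lie above 10.

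Of 20 transcription factors tied to alpha cells, 17 were detected, or 85.0% against 52.6% of all protein-coding genes, with a median of 60.8 CPM. Peg3, described above, was the highest. It was followed per length by Isl1, a LIM homeodomain factor of all islet endocrine cells, at 469, 441, 421 and 425 CPM. The Iroquois factors Irx2 (143 ± 6.26 CPM) and Irx1 (115 ± 8.34 CPM) came next, with per-length ranges of 126 to 139.6 and 105 to 125 that did not overlap. Pax6, a factor that binds the Gcg promoter, came after them at 158 ± 9.31 CPM and overlapped Foxa2 on the per-length scale.

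Below these, Foxa2, Maf and Pou3f4 had per-length levels of 83.2 ± 2.02, 81.0 ± 2.89 and 80.3 ± 4.09 and could not be ordered. Gata4 (6.36 ± 0.614 CPM) and Gata6 (4.77 ± 0.559 CPM) were lower. Foxa1 had 1 count in library 32 and Cdx2, an intestinal factor, had none, so of the 3 Foxa genes only Foxa2 was detected, Foxa3 being at 0.0432 CPM.

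Of 30 factors shared by islet endocrine cells, 21 were detected (70%), with a median of 15.5 CPM. Etv1, an ETS factor, led at 1107, 1126, 999 and 1165 CPM. The basic helix-loop-helix factor Neurod1 followed at 246 ± 9.31 CPM, Nkx2-2 at 101 ± 7.41 CPM, Fev at 63.3 ± 5.01 CPM and Scrt1 at 107 ± 4.76 CPM, where per length Nkx2-2 (104 to 125) and Fev (97.1 to 115) overlapped. Rfx6 (59.4 ± 1.67 CPM) and Insm1 (32.1 ± 2.17 CPM), both needed for islet development, were also present. Neurog3, the factor of endocrine progenitors, had 1 count, and Hnf4a 4 counts over all libraries. Insm2, Lmx1a and Lmx1b had none.

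**Figure D4:**
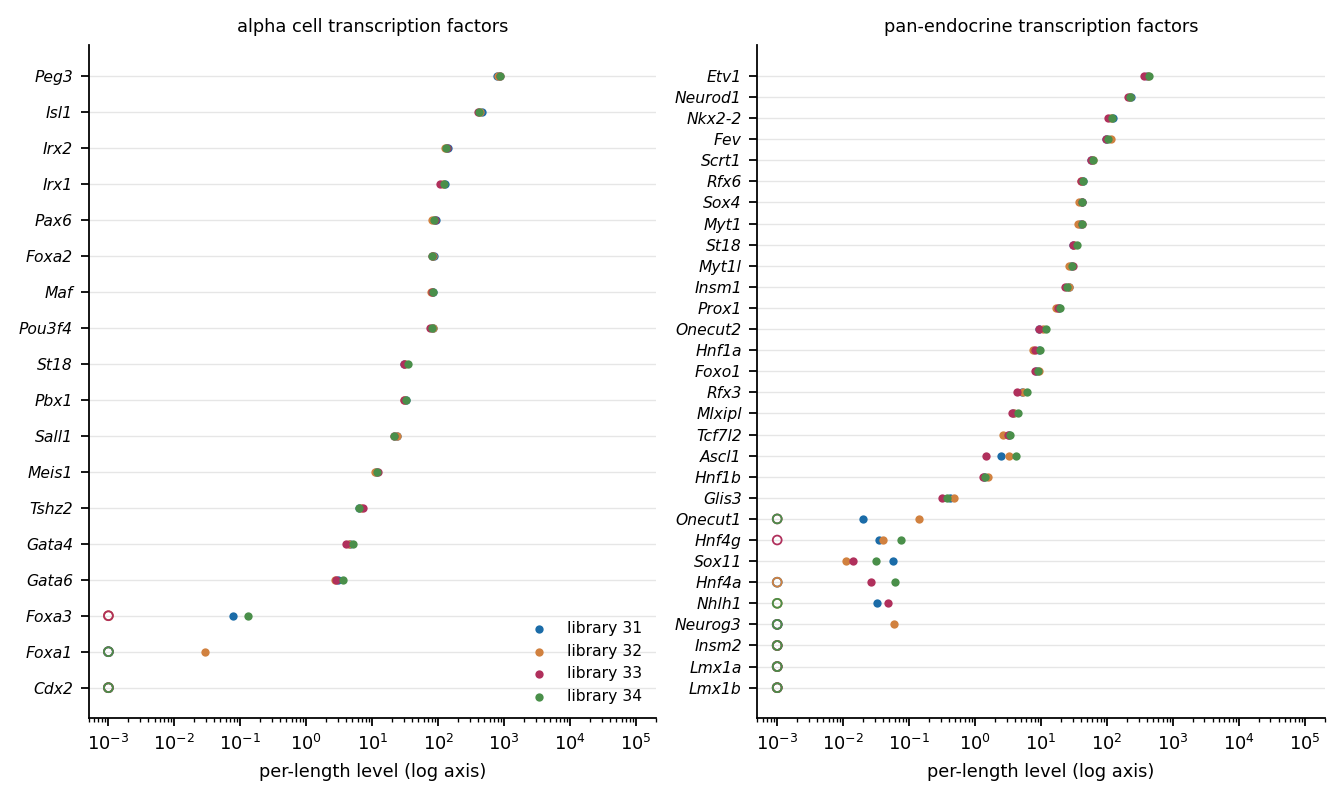
Per-length level (log axis) of 18 of the 20 alpha cell (left) and of the 30 pan-endocrine (right) transcription factors, 1 point per empty-plasmid library, with open circles at the left edge for a count of 0. Most factors lie within a narrow range over libraries, and a few at the bottom, such as Foxa1, Cdx2 and Neurog3, have points at 0.

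Genes known from beta, delta and PP cells were split. Of 26 in the list 9 were detected (34.6%), 5 had no count (Ins1, Ins2, Pax4, Ppy and Ucn3), and the median was 0.169 CPM. Pdx1, the master factor of beta cells, had 1 count in library 33, and Hhex, a delta cell factor, was at 0.352 CPM. Mafa was at 0.0981, 0.339, 0.338 and 0.323 CPM, which is 3 to 9 counts per library. Other members were plainly expressed, among them Rbp4, which was at 1771, 1780.0, 1472 and 1714 CPM. Slc30a8, the zinc transporter of insulin granules, was at 308 ± 17 CPM, G6pc2, the islet glucose-6-phosphatase, at 59.3, 58, 51.6 and 58.4 CPM, and Nkx6-1, a beta cell homeodomain factor, at 56.6, 52.2, 55.9 and 54.1 CPM. Etv1, described above, is also in this list, and so is Prlr, the prolactin receptor, at 179 ± 20.8 CPM.

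Across whole families of transcription factors, the share of detected members varied from none to nearly all. Zinc finger genes named Zfp were the most widely expressed, with 344 of 391 (88.0%) detected, led per length by Zfp146 (114 ± 7.12 CPM) and Zfp706 (179.5 ± 4.43 CPM). Of 39 Hox genes none reached 1 CPM, 17 had no count, and the highest per length, Hoxc10 and Hoxc4, were at 0.145 and 0.133 CPM. Between these, 19 of 44 Fox genes were detected, led by Foxk2 (239.9 ± 1.63 CPM) and Foxm1 (204 ± 5.81 CPM), and 3 of 14 Nkx genes, 2 of 9 Pax genes (Pax6 and Pax3), 4 of 6 Gata genes (Gata2 first at 62.6 ± 5.28 CPM) and 5 of 6 Maf genes.

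Some of these families were dominated by a single member, and others had several members at similar levels. Isl1 exceeded the next of 12 Lhx and Isl genes, Lhx2, with per-length levels of 425 ± 20.9 and 4.95 ± 0.584. In the Irx family Irx2 and Irx1 stood above Irx3 (1.79 ± 0.123 CPM), and Irx4 and Irx6 had no count. Pou3f4 and Pou6f1 led the Pou genes at per-length levels of 80.3 and 14.7, and Sox12 (111 ± 6.19 CPM) and Sox4 (80.9 ± 3.84 CPM) led the Sox genes. Ranked per length, Neurod1 and Atoh8 (83.8 ± 5.16 CPM) led the proneural genes, Sp3 and Klf4 the Klf and Sp genes, and Mga and Tbx15 the Tbx genes.

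Of 70 receptors for hormones and nutrients, 31 were detected (44.3%), below the share of all protein-coding genes, with a median of 0.426 CPM. Oxtr, the oxytocin receptor, was the highest at 345, 351, 327 and 347 CPM, and Hcar1, the lactate receptor, came second per length at 152, 138, 149 and 146 CPM. Calcr, the calcitonin receptor, followed at 112, 129.7, 105 and 121 CPM. Per length these 3 did not overlap (168 to 181, 102 to 113 and 67.6 to 83.8). Gpr119, a receptor of fatty acid amides, and Avpr1b, the vasopressin V1b receptor, had per-length levels of 56.8 ± 3.77 (51.7 to 60.1 over libraries) and 49.9 ± 1.95 (47.4 to 51.5). Igf2r, the mannose-6-phosphate receptor, overlapped Avpr1b at 49.1 ± 2.93 and took the first place when the median transcript length was used.

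Of the receptors of glucagon and the incretins, only that of GIP was detected, at a low level. The insulin receptor and 2 of 5 somatostatin receptors were detected as well. Gcgr, the glucagon receptor, had no count, and Glp1r had 1, 1, 0 and 2 counts. Gipr, the GIP receptor, was at 1.70, 2.38, 2.08 and 1.94 CPM. Insr, the insulin receptor, was at 48.1, 51.8, 48.3 and 54 CPM, whereas its close relative Igf1r was at 0.113 ± 0.0216 CPM, with 2 to 4 counts per library. The somatostatin receptors were led by Sstr3 at 35.1, 31.9, 33.2 and 34.4 CPM, and Sstr2, the subtype known best from islet alpha cells, was at 1.53 ± 0.0680 CPM. Ghsr, the ghrelin receptor, was at 20.2 ± 1.24 CPM and Casr, the calcium-sensing receptor, at 10.8 ± 1.11 CPM.

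Receptors for transmitters were mostly missing. The adrenergic family had 1 of 9 members detected, Adra1b at 2.12 ± 0.41 CPM, and Adrb1 was at 0.137 CPM. None of 5 muscarinic, 14 serotonin, 5 dopamine or 8 metabotropic glutamate receptors reached 1 CPM, and the highest of all these by CPM was Htr3a at 0.984 ± 0.188 CPM. Ionotropic glutamate receptors were different, with 7 of 18 detected, led per length by Grik5 (81.8 ± 4.51 CPM) and Grin1 (67.1 ± 5.28 CPM). By CPM the highest of them was Gria2, at 112 ± 5.68 CPM. Of 19 GABA-A subunits 2 were detected, among them Gabrq at 25.2 ± 1.93 CPM. In the receptor list Chrm3, Cckar, Sucnr1, Htr1f and P2rx1 had no count.

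In 2 families of growth factor receptors 1 member stood above the next. Fgfr2 (25.7 ± 2.22 CPM) stood above Fgfr1 (1.15 ± 0.143 CPM), and Erbb3 (19.9 ± 1.04 CPM) above Egfr (0.533 ± 0.0561 CPM), and per length these pairs did not overlap either. In the TGF-beta receptor family 8 of 13 were detected, with Bmpr1a and Acvr1 at the top per length. Fzd1 and Fzd3 led the frizzled receptors, Epha7 and Epha5 the Eph receptors, and Adgrl1 and Adgrb3 the adhesion receptors. Of 72 orphan receptors named Gpr, 26 were detected, led per length by Gpr19 (52.5 ± 2.41 CPM) and Gpr119.

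**Figure D5:**
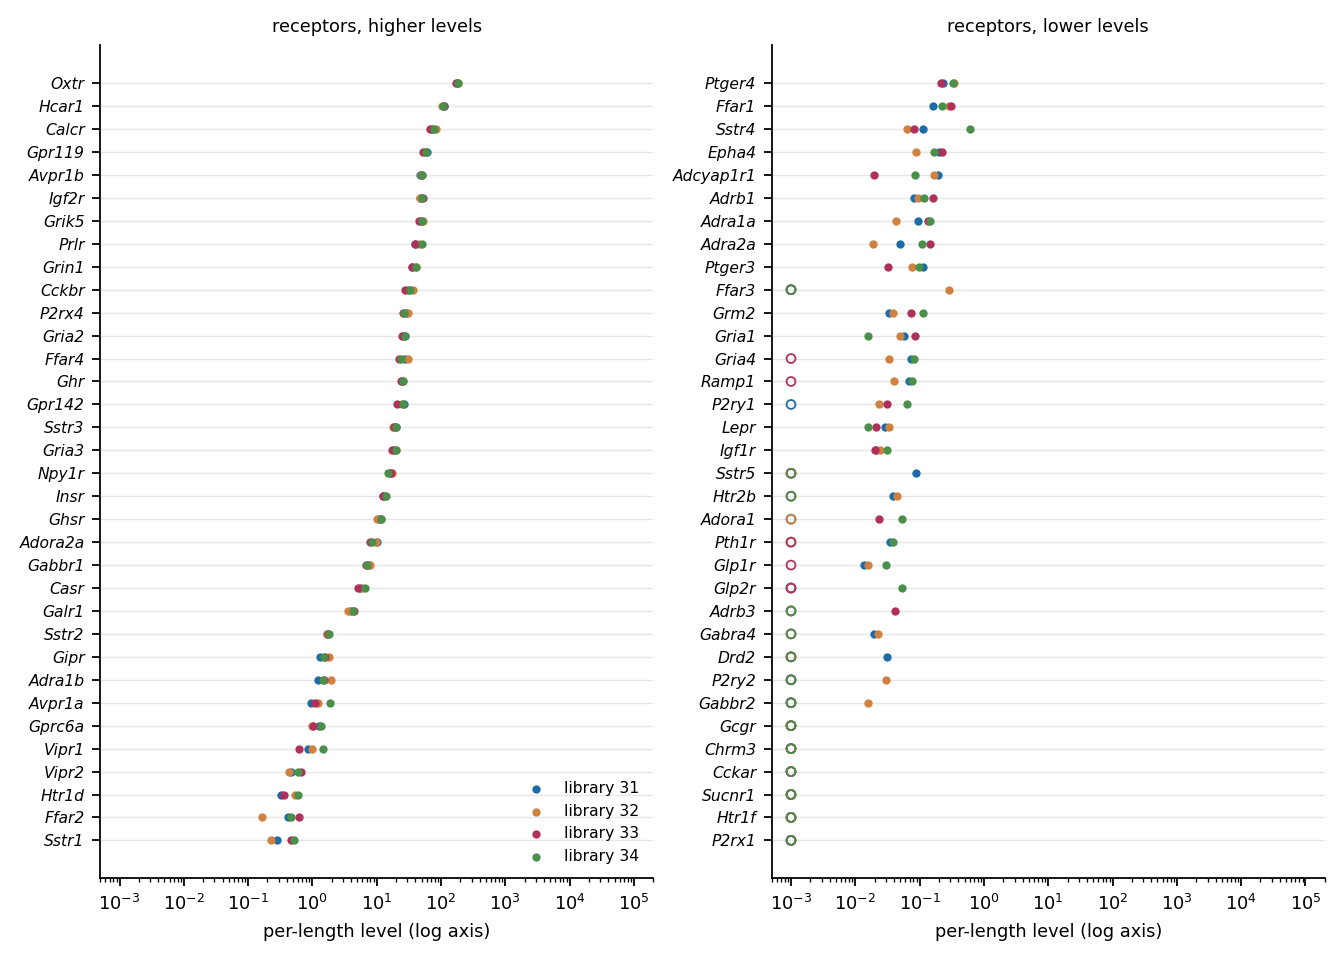
Per-length level (log axis) of 68 of the 70 receptor genes in rank order, split over both panels, 1 point per empty-plasmid library, with open circles at the left edge for a count of 0. Points of a gene lie close together down to about 1 and spread below that, where values rest on a few counts, and 6 genes at the bottom have no count in any library.

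Nuclear receptors were detected for 29 of 49 members (59.2%), with a median of 7.41 CPM. The highest per length were Thra, the thyroid hormone receptor alpha, at 71.2 ± 2.39, Ppard at 63.7 ± 4.06, Nr1d1 (REV-ERB alpha) at 57.2 ± 3.76, Nr2c2 at 56.9 ± 3.41 and Rxrb at 48.3 ± 2.22. Ppard, Nr1d1 and Nr2c2 overlapped and Thra lay above them. Nr3c1, the glucocorticoid receptor, was at 83.4, 84.4, 84.3 and 88.5 CPM. Of the oestrogen receptors, Esr2 had no count and Esr1 had a per-length level of 0.153, and Nr0b1, Nr1i2 and Nr2e3 had no count either.

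Amino acid transporters were among the strongest genes of the list for glucose and amino acid entry, in which 28 of 38 were detected (73.7%), with a median of 79.1 CPM. After Slc38a5, at a per-length level of 1274 ± 83.2, came Ldha, which makes lactate, at 904 ± 85.2, the cationic amino acid transporter Slc7a2 at 337 ± 16, the neutral amino acid transporter Slc38a4 at 316 ± 25 and the transaminase Got1 at 203 ± 4.28. Slc7a2 was at 1094, 1115, 1032 and 1144 CPM and overlapped Slc38a4 on the per-length scale. With the median transcript length Ldha ranked before Slc38a5.

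For glucose itself, the transporters Slc2a1 (GLUT1) and Slc2a3 (GLUT3) were the highest, with per-length levels of 115 ± 18.7 and 76.4 ± 9.8. Slc2a1 was at 150.0, 186, 126 and 153 CPM and Slc2a3 at 185, 232, 174 and 195 CPM, both highest in library 32 and lowest in library 33. Slc2a2, the GLUT2 of beta cells, was at 0.116 ± 0.0913 CPM, with 1 to 7 counts. Likewise Hk1 was at 299, 351, 329.6 and 312 CPM and Hk2 at 33.7 ± 3.99 CPM. Slc5a2 and Slc6a14 had no count.

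Of 38 ion channel genes of electrical excitability, 31 were detected (81.6%), with a median of 15.7 CPM. Both parts of the ATP-sensitive potassium channel led per length. Abcc8, which encodes its sulfonylurea receptor, was at 284, 301, 273 and 289 CPM, and Kcnj11, which encodes its pore, at 114, 113, 112 and 109.8 CPM. Hcn2 (93.1 ± 6.72 CPM), Clcn3 (227 ± 8.36 CPM) and the potassium channel Kcnk16 (53.9 ± 3.86 CPM) followed per length and overlapped. Of the L-type calcium channels, Cacna1c had a per-length level of 43.8 ± 3.16 and Cacna1d one of 5.28 ± 0.355. Kcnd2 had no count.

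Proliferation genes were present almost throughout, with 38 of 41 detected (92.7%) and a median of 90.3 CPM. Per length the leading ones were Pcna, the sliding clamp of DNA replication (759.8 ± 45.1), Top2a (454 ± 25.2), Cdkn2a (383 ± 24.8), Cdk4 (356 ± 13.3) and Mcm2 (353 ± 14.7), of which the last 3 overlapped. Cdkn2a, which encodes the cell cycle inhibitors p16 and ARF, was at 150.1, 146, 130.0 and 137 CPM. The cyclin D genes were uneven, with Ccnd3 at 29.4, 30.3, 24.7 and 30.1 CPM, Ccnd2 at 8.19 ± 0.672 CPM and Ccnd1 at 0.107 ± 0.0533 CPM, or 1 to 4 counts. Their partner Cdk6 was at 0.271 ± 0.132 CPM, and Myc at 1.75 ± 0.331 CPM.

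Of 27 long noncoding RNAs found, 21 were detected (77.8%), against 3.84% of the 26567 annotated genes that are not protein-coding. That larger set includes 13426 pseudogenes, so these shares are not of like sets. Of 9002 annotated long noncoding RNA genes 4960 had a count, and their share at 1 CPM is not given here. Malat1 was the highest at 785, 677, 931 and 736 CPM, with library 33 on top, followed per length by Rian (102 ± 5.81), Gas5 (97.7 ± 14.4), Snhg1 (94.8 ± 9.72) and Snhg6 (63.7 ± 6.44). Rian, Gas5 and Snhg1 could not be ordered. Hotair had no count.

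Markers of other pancreatic cells were low, though not all at 0. Of 24 acinar and ductal genes 7 were detected (29.2%), and Amy2a2, Amy2b, Cela3b, Cftr, Ctrb1, Prss1, Prss2 and Ptf1a had no count. The summed level of the list was 86.2 to 91.7 CPM over libraries, of which Car2, carbonic anhydrase 2, accounted for 61.7 ± 1.60 CPM. Cela1, an elastase, was at 6.25, 6.37, 6.58 and 6.63 CPM, and Spp1 and Krt7 were at 5.28 ± 0.343 and 7.54 ± 0.937 CPM. Stromal, endothelial and immune genes summed to 7.54 to 11.8 CPM, with 3 of 23 detected, among them Cd68 and Col1a2, and Adgre1, Cd3e and Sox10 were among those with no count.

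Whole gene families of other tissues were silent or nearly so. All 15 trace amine receptors, 62 of 64 defensins, 53 of 57 keratin-associated proteins, 18 of 20 interferons and 32 of 38 taste receptors had no count in any library. Of 1093 olfactory receptors 625 had no count and 7 reached 1 CPM, and of 328 vomeronasal receptors 146 had no count and 9 reached it. No interleukin reached 1 CPM. By contrast 82 of 85 cytosolic ribosomal proteins were detected, led per length by Rpl19 and Rpl13a, and a few members were detected among the crystallins, led per length by Cryba2 (65.3 ± 5.71 CPM), and among the chemokines, led by Cx3cl1 (118 ± 2.19 CPM). Of 8 globins 1 was detected, Hbb-bs at 2.11 ± 0.343 CPM.

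The spread between libraries depended on abundance. The median coefficient of variation (SD over mean) was 12.4% for protein-coding genes between 1 and 10 CPM, 5.68% between 10 and 100 CPM and 4.42% between 100 and 1000 CPM, and 6.10% for the 56 genes at 1000 CPM or over. Of protein-coding genes at 50 CPM or over, the steadiest were Prep (90.3, 90.8, 90.6 and 90.4 CPM), Echdc1, Gcnt2, Arid1b and Cdh2, with coefficients of 0.219% to 0.484%. The most variable of them were the histone gene Hist1h2ap, at 98.7, 75.6, 185 and 125 CPM (39.1%), mt-Nd3 (38.2%), the mitochondrial leucyl-tRNA synthetase gene Lars2 (28.4%), the nucleosome-binding gene Hmgn5 (28.3%) and mt-Atp8 (24.5%). Library 33 held an extreme in all 5, the lowest value for mt-Nd3 and the highest for the others.

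Some levels are shared with near-identical copies, between which an estimated count can be divided. The annotated transcript of Gm13394 was 99.9% identical over 1000 bases to that of Gapdh, the glycolytic enzyme, and the levels were 2664 ± 183 and 1959 ± 107 CPM, summing to 4623 ± 289 CPM. The per-length level of Gapdh was 1449.5 ± 77.9 by its longest transcript and 3867 by the median transcript length. Both leave out the counts given to Gm13394, so the place of Gapdh among the nuclear genes is uncertain. Gm28438 was 99.7% identical to mt-Nd3. That gene was at 319, 353, 138 and 407 CPM and its copy at 721, 662, 646 and 681 CPM, and the sum varied by 13.8%, against 38.2% for mt-Nd3 alone. Gm28661, identical to mt-Co2 over 681 bases, was at 389.6 CPM in library 33 and at no more than 1.69 CPM in the other 3.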

How the data were processed

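Poly(A) RNA of 8 samples was sequenced in strand-specific libraries, per the labels' protocols, and the 4 labelled as controls were used. In the submitters' processing notes GRCm39 appears as the build and fastp and kallisto as tools, with no version and no order. The estimated counts deposited by the authors for 75078 Ensembl genes are not scaled for depth and were partly fractional (13.7% to 16.2% of values). How transcripts were summed to genes is not given in the sources used here.

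Counts were divided by the column sum to give CPM. Gene symbols, types and transcript lengths came from GENCODE mouse release 21, which matched 48327 IDs and belongs to an older build, so gene coordinates are not given. Promoter windows came from RefSeq (GRCm38.p6). A per-length level used the longest transcript. A gene counted as detected at a mean of 1 CPM. No test between groups was made. Spread was estimated with edgeR 4.0.16 in R 4.3.3, and copies were compared with BLAST 2.17.0. Tables were made with Python 3.11.15 and pandas 2.3.3. Class limits and the search for values apart from the rest were tested on simulated data.

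The named genes were the 3 markers, the 20 highest by CPM and per length, the 5 highest of 15 lists and members at 0, the highest 2 of transcription factor and receptor families, and the steadiest and most variable protein-coding genes at 50 CPM or over. Other names were chosen after their values were seen, and some genes that the rule would name are not reported here. The libraries, lists and families were chosen with earlier results of these data known, and 2 entries were taken out of the hormone list after the values were seen, because 1 had been matched to another gene by an older symbol and 1 is a receptor. Symbols matched the families by their pattern. Genes with near-identical copies, and genes that overlap others, are uncertain. Protein features were not used here. Alternatives were other library sizes, thinning to equal depth, other detection limits, other transcript lengths and each library left out.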

Additional observations from a re-analysis of the deposited data

Results flagged for a closer look

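Of 221 named genes examined, 6 (2.71%) had 1 library set apart from the other 3, where chance sets apart about 1 in 20. In library 33 Ccnd3 was lowest at 24.7 CPM, G6pc2 at 51.6 CPM and the GABA-A subunit Gabrq at 22.3 CPM, and the other libraries lay at 29.4 to 30.3, 58 to 59.3 and 25.9 to 26.4 CPM. Library 33 was also the lowest library for 37.2% of protein-coding genes at 50 CPM or over and the highest for 27.3%. Its part in the values above was not tested.

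In library 32 both Gapdh, at 2119 CPM against 1899 to 1917 CPM elsewhere, and its near-identical copy Gm13394, at 2936 CPM against 2549 to 2605 CPM, were highest. Mafa was lowest in library 31 at 0.0981 CPM, which is 3 counts against 7 to 9 in the others.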

How the results depend on the processing

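These are 4 libraries of 1 clone, no untransfected cells were measured and separate cultures are not stated, so the SDs may understate biological spread. In any library 3 counts are 0.0981 to 0.145 CPM, depending on its depth, so values near or under this range rest on a few counts. Without mitochondrial DNA genes in the library size, Gcg was at 23181 CPM, Pcsk2 at 3077 CPM and Slc38a5 at 1134 CPM, and with protein-coding genes alone in it Gcg was at 22039 CPM and Pcsk2 at 2925 CPM. Of 157 gene levels, TMM scaling and thinning to the smallest library moved none by more than 1 SD. Thinned levels were still 0.521 to 1.38 times the original ones. Leaving mitochondrial DNA genes out of the library size moved 96 of the 157 by 1 SD or more, and protein-coding genes alone moved 24. Counting a gene with 3 counts or fewer per library as absent raised the absent protein-coding genes from 4386 to 6969. Detection at 0.5 CPM gave 12028 genes, and 1 CPM in every library 11246, against 11453.

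Leaving out 1 library gave 20988 to 21370 CPM for Gcg, 2810 to 2820 CPM for Pcsk2, 1020 to 1069 CPM for Slc38a5, 11449 to 11459 detected and 4611 to 4807 absent genes. The coefficient of variation ranged from 0.0499 to 0.0702. Levels that rest on 1 count, such as those of Sst or Pdx1, fell to 0 without the library that held it. By median transcript length 15 of the 20 highest genes per length were shared and the highest member was the same in 10 of 15 lists. The exceptions were Pam, Igf2r, Ldha, Col1a2 and Top2a, which then led. By the principal isoform's length, an alternative chosen after seeing the data, 19 and 15 were the same. No paired analysis was possible because no comparison between groups was made.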

Other observations

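On the Dlk1 and Meg3 locus, the noncoding RNAs Meg3 (139, 134, 126 and 128 CPM) and Rian (364, 339.8, 318 and 341 CPM) were well expressed in every library, while the protein-coding gene Dlk1 had 2 to 4 counts per library, or 0.0962 ± 0.0389 CPM (SD, n = 4). H19 was at 1.21 ± 0.0851 CPM, and its neighbour Igf2 at 0.227 ± 0.101 CPM. These genes were chosen after their values were seen.

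Xist and 4 Y-linked genes were examined. Xist, the RNA that coats the inactive X chromosome, was at 0.622, 0.415, 0.193 and 0.717 CPM. The genes Ddx3y, Uty, Kdm5d and Eif2s3y were at 0.852 ± 0.170, 0.526 ± 0.144, 1.14 ± 0.126 and 0.612 ± 0.183 CPM, with 10 or more counts in each library. The reference gene Actb was at 560.3 ± 9.83 CPM.

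Among gene models without a symbol in the annotation used, ENSMUSG00000119584 was the highest. It was at 1418, 1226, 2686 and 1621 CPM, with library 33 the highest and a coefficient of variation of 37.5%.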
